A study of Mus musculus with 11 samples.

Results

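Endomembrane trafficking and autophagy genes were examined in striatal cells of mice in which the transcription factor NF-Y had been knocked down. The 8 members, Rab5b, Rabgap1, Stx17, Rb1cc1, Tmed1, Tmem9b, Rcn2 and Tor1aip2, were chosen by gene symbol from the 1767 genes of the deposited table, and all 8 were found. RNA was sequenced from 11 samples of male C57BL/6 mice injected in the striatum of both hemispheres at 6 weeks of age with an adeno-associated virus (AAV), with the tissue taken 3 weeks after injection. The NT2 control vector (6 samples) expressed EmGFP with a non-targeting miR RNAi, and the NF-YA/YC knockdown vector (5 samples) expressed EmGFP with the miR RNAi YA-8/YC-2 against the NF-YA and NF-YC subunits. Both vectors used the CAG promoter, which is active in many cell types, so that the EmGFP-positive, propidium iodide-negative cells collected by FACS were not restricted to neurons by the vector. The mice were wild type and both groups carried the virus, EmGFP and a miR RNAi.

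Proteins made in the endoplasmic reticulum (ER) are carried in vesicles through the Golgi to the plasma membrane, endosomes and lysosomes. Rab GTPases mark the membranes and recruit tethers, and SNARE proteins drive their fusion. In autophagy, a membrane closes around cytoplasm or organelles and fuses with the lysosome, and neurons depend on this pathway because they do not dilute damaged material by division. NF-Y is a trimer of NF-YA, NF-YB and NF-YC that binds the CCAAT sequence in promoters.

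The values below are normalized counts, which are the estimated reads of a gene divided by the scaling factor that the authors had used for that sample. Summed over the table, a control sample held between 1581757 and 3141324 estimated counts and a knockdown sample between 1954949 and 3010153, which is not the whole depth of a library because other genes were not listed. Before the division by the scaling factor, the estimated counts of the 8 members lay between 316 (Stx17) and 6151 (Tmem9b) per sample. All 8 members reached 200 estimated counts in at least 1 sample. The table contains only genes with a deposited p-value under 0.05, so the tests describe listed genes.

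The targeted gene Nfyc was examined first. Its normalized count in the NT2 control samples had a lowest value of 804, a median of 949 and a highest value of 1178. In the knockdown samples it was 927, 792, 845, 569 and 696 in samples 4, 6, 8, 10 and 22. The groups overlapped, with 3 of the 5 knockdown samples below every control sample. Nfyc differed by -0.32 on the log2 scale (standard error 0.14, edgeR quasi-likelihood test, adjusted p = 0.053 after Benjamini-Hochberg correction), and the exact permutation test gave p = 0.05. Nfyc did not pass the threshold in this fit. Its log2 fold change was -0.19 with trimmed mean of M-values (TMM) factors computed from the listed genes and -0.60 with a score of glial marker genes as a covariate, and neither passed. Nfyc was called with DESeq2's test (adjusted p = 0.047) and with the sample number series as a covariate in edgeR (adjusted p = 0.039). It was also called by edgeR when knockdown sample 4 or control sample 23 was left out. Nfya and Nfyb were not analysed here.

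Of the 8 members, 7 were lower and 1, Tor1aip2, was higher in the knockdown samples at an adjusted p under 0.05. Over the whole table, 47.3% of the genes were called lower and 32.2% were called higher, so that most listed genes passed the same test. The median log2 fold change was -0.40 over the 8 members and -0.27 over the table. The knockdown samples all lay below the control samples for 3 members, Rab5b, Rabgap1 and Stx17, whereas 6.11% of the listed genes showed this. No member had all knockdown samples above the control samples, which 6.9% of the listed genes showed. When the TMM factors took the place of the authors' factors, the median of the table moved by 0.13 on the log2 scale, and the members called lower went from 7 to 3 (Rab5b, Rabgap1 and Rcn2) while Tor1aip2 was still called higher. Over the table, the TMM factors turned 836 lower and 569 higher genes into 377 and 689. Rab5b, Rabgap1, Stx17 and Rcn2 were called in all 11 fits that each left out 1 sample, whereas the call was lost in 5 of these fits for Tmem9b, in 7 for Rb1cc1, in 7 for Tmed1 and in 9 for Tor1aip2. Each of these fits called between 48% and 76.9% of the listed genes, and the share called in all 11 was not computed. In a further fit a glial score was added as a covariate. The score is the mean centred log2 value per sample of 9 glial markers, 7 of them of astrocytes. These markers were in the table because they had passed its p-value. A difference of the score between the groups was thus in part set by that choice. In that edgeR fit 0 of the 8 members were called, and 3 had an unadjusted p under 0.05, while 1.87% of all 1767 genes were called.

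**Figure D1:**
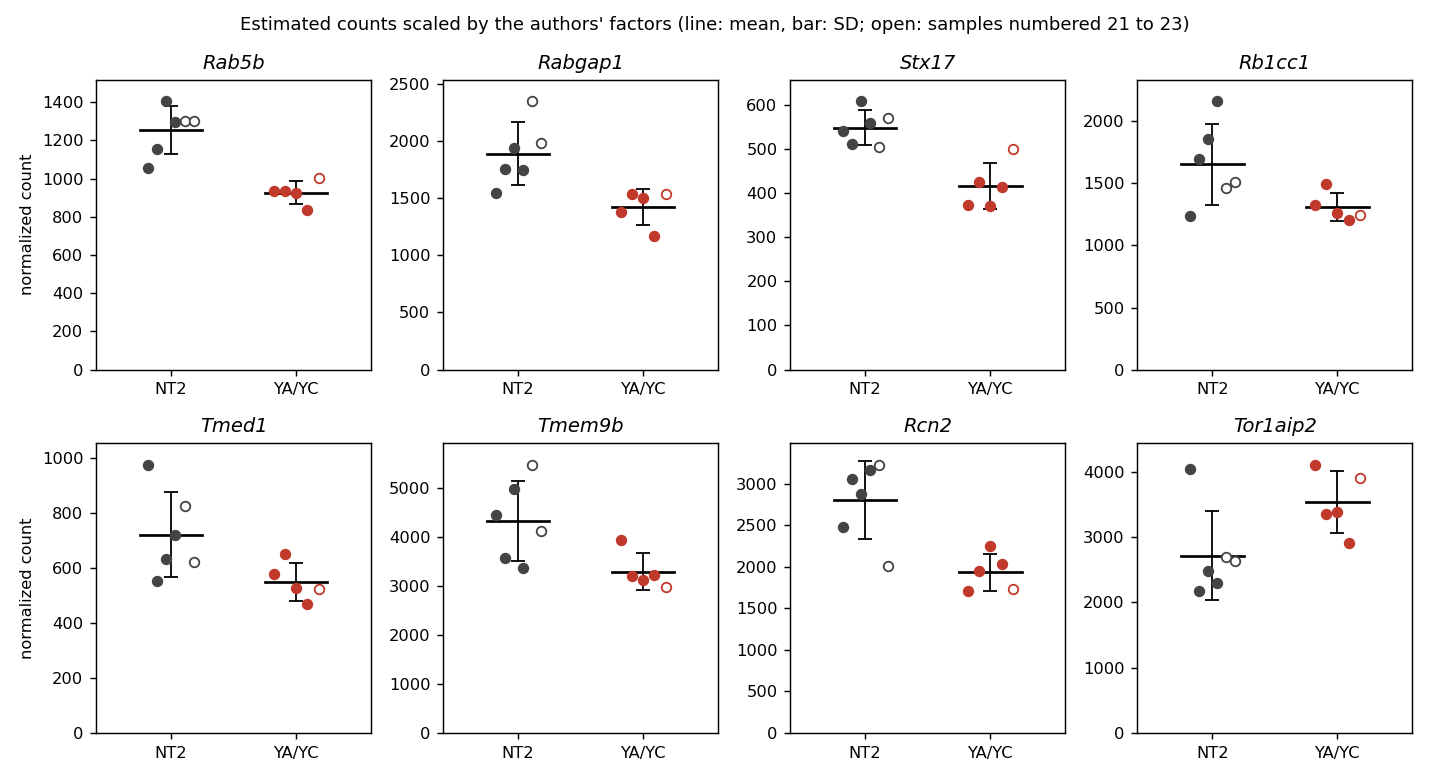
Normalized counts (y axis, estimated count divided by the authors' scaling factor) of the 8 genes in the 6 NT2 control and 5 NF-YA/YC knockdown (YA/YC) samples; each point is a sample, the line is the mean and the bar the SD, and open points are samples numbered 21 to 23. The groups did not overlap for Rab5b, Rabgap1 and Stx17, and NT2 control sample 3 had 4037 counts of Tor1aip2, within the range of the knockdown samples.

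Rab5b encodes a GTPase of early endosomes, where it directs the fusion of incoming vesicles. The NT2 control samples ranged from 1054 to 1405 normalized counts of Rab5b, with a median of 1298. Knockdown samples 4, 6, 8, 10 and 22 held 934, 935, 924, 838 and 1004. The lowest control sample, number 3, was only slightly above the highest knockdown sample, number 22, and the groups did not overlap. The mean fell from 1252 ± 126 (SD, n = 6) to 927 ± 59.2 (SD, n = 5), a change of -26.0%. This amounts to a log2 fold change of -0.43 (standard error 0.096, edgeR quasi-likelihood test, adjusted p = 0.01), and Rab5b ranked 103 by p among the 1767 genes, ahead of the other 7 members.

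Rabgap1 encodes a GTPase-activating protein that switches Rab proteins off. Control values of Rabgap1 ran from a lowest of 1545 normalized counts over a median of 1850 to a highest of 2348. The knockdown values were 1377, 1538, 1503, 1169 and 1537 in samples 4, 6, 8, 10 and 22. The groups were separated by only a few counts, with control sample 3 at 1545 next to knockdown samples 6 and 22. On the log2 scale Rabgap1 differed by -0.41 (standard error 0.12, edgeR quasi-likelihood test, adjusted p = 0.021). The exact permutation test gave p = 0.0043 for both Rab5b and Rabgap1.

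Among 131 listed Rab GTPases and regulators, 11 were in the table, of which 5 were called lower and 4 higher, close to the 47.3% and 32.2% over the table. Their median log2 fold change was -0.18, beside -0.27 over the table. These values include Rab5b and Rabgap1, and without them 3 of 9 genes were called lower and 4 higher, with a median of 0.21. The counts of the lists that follow include their members too, and without these the autophagy, SNARE, ER to Golgi and endosome lists had medians of -0.43, -0.21, -0.32 and -0.27. With TMM factors, 3 of the 11 were called lower and 5 higher. Rab3b, a Rab of secretory vesicles, rose from 133 ± 25.5 (SD, n = 6) to 288 ± 64.2 (SD, n = 5) without overlap of the groups, which is 1.11 on the log2 scale (edgeR quasi-likelihood test, adjusted p = 0.0039). Dennd3, which encodes an exchange factor that switches a Rab on, fell from 255 ± 94.2 (SD, n = 6) to 125 ± 33.3 (SD, n = 5), with a log2 fold change of -1.03 and an adjusted p of 0.015 from the same edgeR test. With the glial score in the edgeR fit, 0 of the 11 were called, 3 had an unadjusted p under 0.05, and the log2 fold changes of Rab3b and Dennd3 were 1.07 and -0.79. The lists do not hold every gene of a family. Rab44 (log2 fold change 2.01, adjusted p = 0.029) and Rab6a (-0.19, adjusted p = 0.079) were in the table but not among the 131, and they were picked out after their values were seen.

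Rb1cc1 encodes a scaffold of the ULK kinase complex, which starts the formation of autophagosomes. Its normalized count in the NT2 control samples had a lowest value of 1235, a median of 1607 and a highest value of 2163. In the knockdown samples it was 1326, 1495, 1260, 1209 and 1246 in samples 4, 6, 8, 10 and 22. Only knockdown sample 10 was below every control sample, because control sample 3 was as low as the knockdown samples. The log2 fold change was -0.34 (standard error 0.14, edgeR quasi-likelihood test, adjusted p = 0.04). Rb1cc1 was the only member whose exact permutation test did not pass 0.05 (p = 0.052), and with TMM factors its adjusted p was 0.17.

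Stx17 encodes a SNARE that is recruited to closed autophagosomes and drives their fusion with lysosomes. The NT2 control samples ranged from 504 to 608 normalized counts of Stx17, with a median of 550. Knockdown samples 4, 6, 8, 10 and 22 held 374, 426, 370, 414 and 499. Knockdown sample 22 was just below control sample 21, and the other 4 knockdown samples were well below the controls. This amounts to a log2 fold change of -0.40 (standard error 0.11, edgeR quasi-likelihood test, adjusted p = 0.018), and the exact permutation test gave p = 0.0022, the smallest value that it can give. The controls varied little, with a coefficient of variation of 7.13%, the lowest of the 8 members. With TMM factors the adjusted p of Stx17 was 0.054.

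Of 65 listed autophagy genes, 7 were in the table, and all 7 were called lower, with a median log2 fold change of -0.40, beside 47.3% called lower and a median of -0.27 over the table. With TMM factors, 0 of the 7 were called and 2 had an unadjusted p under 0.05 in edgeR's test. All 7 still had a negative log2 fold change, and their median was -0.26. With the authors' factors 1023 of the 1767 listed genes had a negative value, and this number was not computed with TMM factors. Over the table, 377 of the 1767 genes were called lower with TMM factors, and the median was -0.13. With the glial score, 0 of the 7 were called by edgeR and 1 had an unadjusted p under 0.05, with a median of -0.20. Over the table, 7 of the 1767 genes were called lower with the glial score, and the median was -0.099. Besides the 2 members, they were Atg9a, which encodes the transmembrane protein of the vesicles that seed autophagosomes, Wdr45, Map1lc3b, Nbr1 and Pink1. Wdr45, which encodes a phosphoinositide-binding protein, fell from 453 ± 69.4 (SD, n = 6) to 334 ± 30.9 (SD, n = 5), with a log2 fold change of -0.44, and its groups did not overlap. Map1lc3b, which encodes a form of LC3 that is coupled to the autophagosome membrane, had a log2 fold change of -0.26, and the cargo receptor gene Nbr1 had one of -0.23. Pink1, which encodes the kinase that marks damaged mitochondria, had a log2 fold change of -0.45, which was -0.0074 with the glial score. For Atg9a it was -0.43, and -0.13 with the glial score. Among 58 listed SNAREs and fusion factors, 4 were in the table, of which 3 were called lower and 1 higher, and with TMM factors 0 were called lower and 1 higher by edgeR, with 2 at an unadjusted p under 0.05. When the glial score was added, 0 of the 4 were called and 1 had an unadjusted p under 0.05, but their median log2 fold change moved only from -0.24 to -0.21. The gene that was higher was Nsf, which encodes the ATPase that takes SNARE complexes apart, and it rose from 1285 ± 198 (SD, n = 6) to 1676 ± 149 (SD, n = 5), without overlap of the groups. Its log2 fold change was 0.38, and 0.29 with the glial score.

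Tmed1 encodes a p24 family protein that sorts cargo between the ER and the Golgi. Control values of Tmed1 ran from a lowest of 553 normalized counts over a median of 676 to a highest of 976. The knockdown values were 578, 649, 528, 468 and 522 in samples 4, 6, 8, 10 and 22. The groups overlapped, and control sample 3 was the highest of all 11 samples. On the log2 scale Tmed1 differed by -0.39 (standard error 0.15, edgeR quasi-likelihood test, adjusted p = 0.038), and without control sample 3 it was -0.29 with an adjusted p of 0.06. Of 101 listed genes of ER to Golgi transport, 4 were in the table (Tmed1, Trappc9, Cog5 and Yif1a), and all 4 were called lower, beside 47.3% of all listed genes. With TMM factors, 0 of the 4 were called by edgeR and 1 had an unadjusted p under 0.05, with a median log2 fold change of -0.22, while 377 of the 1767 genes were called lower. With the glial score, 0 of the 4 were called and 3 had an unadjusted p under 0.05, with a median of -0.50. Cog5, which encodes a subunit of a Golgi tethering complex, fell from 312 ± 28.8 (SD, n = 6) to 227 ± 29.8 (SD, n = 5) without overlap of the groups.

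Tmem9b encodes a transmembrane glycoprotein of lysosomes. Its normalized count in the NT2 control samples had a lowest value of 3355, a median of 4272 and a highest value of 5468. In the knockdown samples it was 3932, 3201, 3117, 3219 and 2967 in samples 4, 6, 8, 10 and 22. Of the knockdown samples, 4 were below every control sample, and sample 4 lay among the controls. The log2 fold change was -0.39 (standard error 0.14, edgeR quasi-likelihood test, adjusted p = 0.029), and with TMM factors the adjusted p was 0.097. Among 142 listed genes of endosomes, sorting and lysosomal tethering, 10 were in the table, with 6 called lower and 4 higher, beside 47.3% lower and 32.2% higher over the table, and with TMM factors 1 lower and 4 higher. Sort1, which encodes a sorting receptor between the Golgi and endosomes, fell from 6514 ± 1116 (SD, n = 6) to 4729 ± 551 (SD, n = 5). The genes called higher were Ehd1, a regulator of endocytic recycling, Exoc4, a subunit of the exocyst tether, the late endosome tetraspanin Cd63 and the ESCRT gene Snf8, with log2 fold changes of 0.41, 0.33, 0.48 and 0.36. These became 0.10, 0.33, 0.045 and -0.022 with the glial score, that of Sort1 went from -0.46 to -0.27, and 0 of the 10 genes were called by edgeR or had an unadjusted p under 0.05. Exoc6b (-0.51 and -0.46) and Ap3m2 (-0.32 and -0.28) moved less, and the median of the 10 genes was -0.30 and then -0.27.

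Rcn2 encodes a calcium-binding protein of the ER lumen with EF hands. The NT2 control samples ranged from 2010 to 3231 normalized counts of Rcn2, with a median of 2968. Knockdown samples 4, 6, 8, 10 and 22 held 1706, 1947, 2249, 2039 and 1731. The groups overlapped through control sample 23 alone, and the other 5 control samples were above every knockdown sample. The mean fell from 2805 ± 472 (SD, n = 6) to 1935 ± 226 (SD, n = 5), a change of -31.0%. This amounts to a log2 fold change of -0.54 (standard error 0.13, edgeR quasi-likelihood test, adjusted p = 0.014), the largest in size among the 8 members under the authors' scaling, and 27.2% of the listed genes had a lower value.

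Tor1aip2 encodes an ER membrane protein that activates torsin ATPases. Control values of Tor1aip2 ran from a lowest of 2176 normalized counts over a median of 2553 to a highest of 4037. The knockdown values were 4109, 3357, 3390, 2914 and 3907 in samples 4, 6, 8, 10 and 22. The groups overlapped through control sample 3 alone, and the other 5 control samples were below every knockdown sample. On the log2 scale Tor1aip2 differed by 0.38 (standard error 0.16, edgeR quasi-likelihood test, adjusted p = 0.044), and it became 0.53 (adjusted p = 0.0037) without control sample 3. With the sample number series as a covariate, the adjusted p was 0.052. Among 13 listed genes of ER lumen calcium-binding proteins and torsin partners, the only other gene in the table was Rcn3, a relative of Rcn2, which differed by -0.65 on the log2 scale (edgeR quasi-likelihood test, adjusted p = 0.037, and 0.077 with TMM factors). For Rcn3 the log2 fold change was -0.031 with the glial score.

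Levels were compared between genes per kilobase of exon, with exon lengths from the GENCODE annotation of the build GRCm38. In the NT2 control samples Tmem9b was highest with 2156 ± 407 (SD, n = 6) normalized counts per kilobase, followed by Rcn2 with 591 ± 99.6 and Tmed1 with 475 ± 103. Rab5b had 298 ± 29.9 and Tor1aip2 295 ± 73.3 normalized counts per kilobase, and Rabgap1, Rb1cc1 and Stx17 had 150 ± 21.9, 113 ± 22.3 and 92.4 ± 6.59. Rcn2 and Tmed1, Rab5b and Tor1aip2, and the neighbours from Rabgap1 to Stx17 differed by less than the sum of their SDs. In the knockdown samples Tor1aip2 reached 384 ± 51.6 (SD, n = 5) normalized counts per kilobase and stood between Rcn2 with 408 ± 47.6 and Tmed1 with 362 ± 45.0, which again differed by less than the sum of their SDs.

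Exons of some members overlap other genes in the same annotation, and the sources used here do not state that counting used the strand, so reads of overlapping exons cannot be told apart. Of the exon bases of Tmed1, 13.6% overlap Dnm2 on the opposite strand, and of those of Tmem9b, 13.9% overlap a pseudogene on the opposite strand. For Tor1aip2 the overlap was 7.58%, with its neighbour Tor1aip1, and for Rb1cc1 3.8%, with an antisense gene. For Rabgap1 it was under 1% with each of its overlapping genes, and no overlap was found for Rab5b, Stx17 and Rcn2. The table lists Tor1aip2 with a pair of Ensembl identifiers, and exons of either that the annotation holds were pooled for its exon length.

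The table places the members on 6 chromosomes, in coordinates of the build mm9 named in the submitters' processing notes. Rb1cc1 (chr1:6204743-6266185, plus strand) and Tor1aip2 (chr1:157882794-157915989, plus strand) lie on chromosome 1, and Tmed1 (chr9:21311824-21314630, minus strand) and Rcn2 (chr9:55889652-55909689, plus strand) lie on chromosome 9. Rabgap1 is at chr2:37298805-37421957 (plus strand), Stx17 at chr4:48137791-48199378 (plus strand), Tmem9b at chr7:116879350-116896389 (minus strand) and Rab5b at chr10:128114239-128133324 (minus strand). Members on the same chromosome were far apart.

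The samples carry numbers from 3 to 10 (4 per group) and from 21 to 23 (2 control samples and 1 knockdown sample), and the labels do not say what the numbers stand for. Within the samples numbered 3 to 10, the log2 fold changes kept their signs for all 8 members. Rab5b (-0.44, adjusted p = 0.045), Stx17 (-0.48, adjusted p = 0.039) and Rcn2 (-0.55, adjusted p = 0.037) passed edgeR's quasi-likelihood test there, and the other 5 members did not. Over the table, 18.3% of the 1767 genes were called in these samples, 195 lower and 128 higher. The later numbers include 1 knockdown sample and were not tested alone. Control sample 3 stood with the knockdown samples for Rb1cc1 and Tor1aip2 and was the lowest control for Rab5b and Rabgap1, whereas it was the highest sample for Tmed1.

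The chosen markers of other cell types that were in the table moved with the same comparison. Oligodendrocytes and microglia were represented by 1 marker each, and genes outside the marker lists were not assigned to cell types. Of 44 markers of astrocytes, oligodendrocytes and microglia, the table held 9, each of them called lower, beside 47.3% of all listed genes. Their median log2 fold change was -1.18 (-1.03 with TMM factors, under which 7 were called). The other glial markers were not analysed here, and the 9 had been chosen by the p-value that defines the table, which in part fixes this count. They were Slc1a3, Gja1, Gjb6, Aldoc, Fgfr3, Acsbg1 and Glul of astrocytes, Ugt8a of oligodendrocytes and P2ry12 of microglia, which had the highest mean, and none of them was at 0 in any sample. The normalized counts summed over the 9 markers were 55836, 108978, 99946, 78291, 137500 and 79646 in control samples 3, 5, 7, 9, 21 and 23, and 46369, 46297, 53408, 55035 and 61223 in knockdown samples 4, 6, 8, 10 and 22. Control sample 3 was thus within the range of the knockdown samples. Of 11 endothelial and mural markers, the table held 7, chosen by the same p-value, and each of them was called lower (5 with TMM factors). The most abundant of them was Slco1a4, and none was at 0. Their sums were 5702, 6646, 7345, 9246, 9454 and 9489 in the control samples and 4880, 6332, 4618, 4680 and 3784 in the knockdown samples, in the same order. Of 8 neuron markers and 13 striatal projection neuron markers, 0 were among the listed genes, all of which had been chosen by a p-value, so their levels were not analysed here. Fewer cells of a type and less RNA per cell cannot be told apart in these samples.

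The glial score averaged 0.45 ± 0.62 (SD, n = 6) for NT2 and -0.54 ± 0.36 (SD, n = 5) for the knockdown. With this score in the fit, the log2 fold change became -0.21 for Rabgap1, -0.28 for Rcn2 and 0.09 for Tor1aip2, while it was -0.33 for Rab5b, -0.37 for Stx17 and -0.62 for Tmed1. The score differs between the groups, so the part of the glial markers and that of the knockdown in these changes cannot be told apart.

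**Figure D2:**
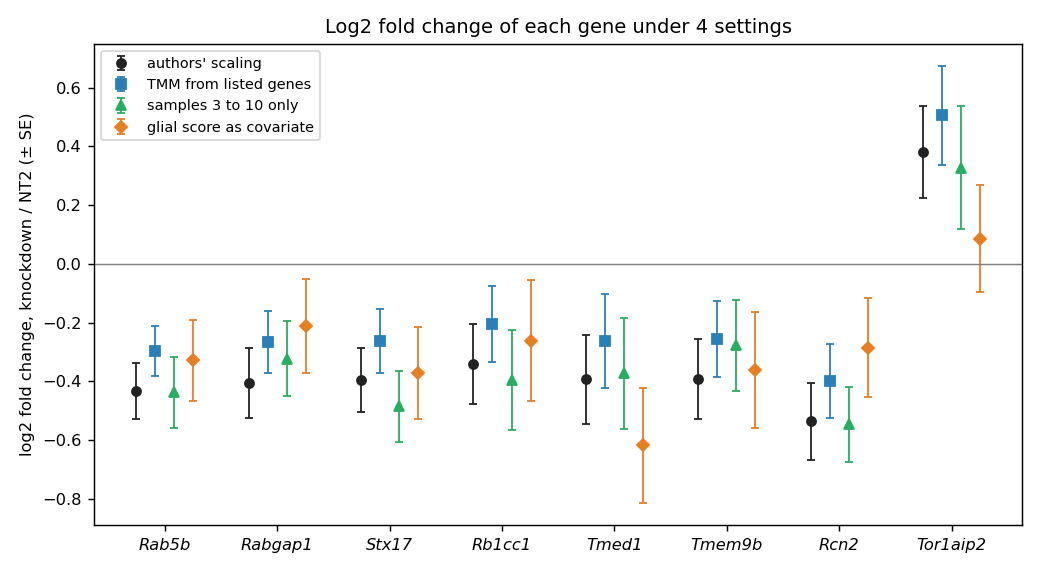
Log2 fold change of knockdown over NT2 control (y axis) for the 8 genes (x axis) with the standard error as bars, fitted with the authors' scaling, with TMM factors from the listed genes, in the samples numbered 3 to 10, and with the glial score added to the model. The sign was the same in all 4 settings for each gene, and Tor1aip2 was near 0 (0.09) with the glial score.

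The genes whose values varied most like those of each member within the groups were found by Pearson's r of centred log2 values over the 11 samples, as the 2 largest of 1327 comparisons. They were Aplp2 (0.81) and Usp37 (0.81) for Rab5b, and Zfp40 (0.88) and Egflam (0.87) for Rabgap1. Med18 (0.82) and Zmynd11 (0.80) stood closest to Stx17, and Yes1 (0.93) and Capn6 (0.91) to Rb1cc1. Those for Tmed1 were Mpp1 (0.95) and Bag1 (0.92). Capn6, Mpp1 and Bag1 were called higher (log2 fold changes of 1.32, 0.34 and 0.34), although Rb1cc1 and Tmed1 were called lower. Ppp2ca (0.92) and Nt5c3 (0.91) were closest to Tmem9b, Tspan3 (0.89) and Slc19a1 (0.85) to Rcn2, and A430084P05Rik (0.96) and Ms4a6c (0.95) to Tor1aip2. No gene was named for more than 1 member. The largest of so many coefficients are high by selection, and they are given as a description.

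Promoter windows of RefSeq (GRCm38.p6), which span 250 bases before to 50 bases after an annotated start, were found for 7 of the 8 members, with 13 windows in all. Rb1cc1 was not among them. The motif CCAAT was searched on both strands, where ATTGG is its reverse complement, and so were its longer forms, each of which contains the motif. These forms were CCAATCA and CCAATGA, to which the pair CCAATCG and CCAATGG was added. CCAAT or ATTGG was present in 37.4% of all 32851 windows, and a longer form in 17.1%. Counted by gene, 41.1% of 27025 genes had CCAAT or ATTGG in any window and 19.4% had a longer form. Among the listed genes with a window, CCAAT or ATTGG was found for 49.7% of the genes called lower and for 36% of those called higher, and a longer form for 31.4% and 18.3%. Of the 7 members with a window, 4 held both CCAAT or ATTGG and a longer form, namely Rab5b, Rabgap1, Tmed1 and Rcn2.

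The windows of these 4 genes are shown because they are the members with the motif. All 4 were called lower, and so were Stx17 and Tmem9b, whose windows held no match, beside 47.3% of all listed genes. Capitals mark CCAAT or ATTGG. The windows are at chr10:128696219-128696518 (minus strand) for Rab5b, chr2:37443035-37443334 (plus strand) for Rabgap1, chr9:21510185-21510484 (minus strand) for Tmed1 and chr9:56041595-56041894 (plus strand) for Rcn2.
Rab5b: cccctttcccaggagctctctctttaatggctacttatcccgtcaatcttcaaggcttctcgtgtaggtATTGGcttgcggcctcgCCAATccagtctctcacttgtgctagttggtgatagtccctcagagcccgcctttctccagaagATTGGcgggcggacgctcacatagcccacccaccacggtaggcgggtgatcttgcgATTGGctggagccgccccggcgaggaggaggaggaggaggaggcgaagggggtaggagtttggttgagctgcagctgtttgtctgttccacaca
Rabgap1: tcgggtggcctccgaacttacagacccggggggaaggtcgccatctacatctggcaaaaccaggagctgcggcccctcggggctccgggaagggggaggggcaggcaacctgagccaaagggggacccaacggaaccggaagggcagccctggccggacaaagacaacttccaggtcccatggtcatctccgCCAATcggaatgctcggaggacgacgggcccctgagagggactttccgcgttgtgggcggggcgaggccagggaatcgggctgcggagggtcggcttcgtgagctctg
Tmed1: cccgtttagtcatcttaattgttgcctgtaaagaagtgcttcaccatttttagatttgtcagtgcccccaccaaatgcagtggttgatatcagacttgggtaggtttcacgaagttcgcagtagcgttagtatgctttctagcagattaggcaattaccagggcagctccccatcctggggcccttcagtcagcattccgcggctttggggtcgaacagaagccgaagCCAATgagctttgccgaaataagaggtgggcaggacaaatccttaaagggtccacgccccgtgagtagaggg
Rcn2: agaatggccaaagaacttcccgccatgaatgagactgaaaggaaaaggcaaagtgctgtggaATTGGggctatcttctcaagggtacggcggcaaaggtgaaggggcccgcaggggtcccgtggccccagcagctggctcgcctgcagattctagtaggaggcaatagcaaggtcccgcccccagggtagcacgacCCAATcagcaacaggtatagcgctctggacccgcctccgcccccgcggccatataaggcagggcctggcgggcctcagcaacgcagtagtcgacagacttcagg
The Rab5b window held 4 matches, a number reached by 1.06% of all windows, of which 3 were ATTGG and 1 was CCAAT. The match nearest to the start began at base -44 and was part of the longer form CCAATCG read on the opposite strand. In Rcn2 a match within CCAATCA began at base -54 and a second match, ATTGG, at base -188, and in Rabgap1 the single match, within CCAATCG, began at base -58. In Tmed1 the match, within CCAATGA, began at base -22 of the window shown, and the window of its other annotated start held CCAAT at base -128 without a longer form. The windows of Stx17 and Tmem9b, the second window of Rabgap1 and the 5 windows of Tor1aip2 held neither CCAAT nor ATTGG. A match describes the letters of the window only.

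**Figure D3:**
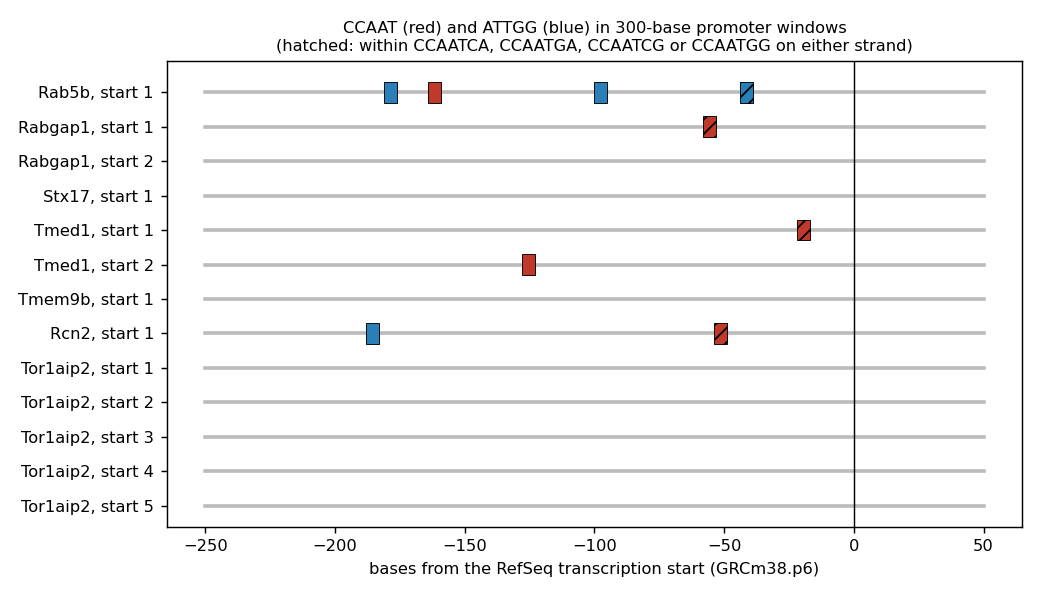
Positions of CCAAT (red) and ATTGG (blue) in 13 RefSeq promoter windows of 7 genes, with bases from the annotated start on the x axis and 1 line per window; hatching marks matches that lie within a longer form on either strand. Rab5b has 4 matches, and the longer forms of Rab5b, Rabgap1, Tmed1 and Rcn2 lie between bases -58 and the start.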

How the data were processed

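RNA-seq of sorted striatal cells was analysed in 6 NT2 control and 5 knockdown samples, grouped by their labels. The authors prepared SMARTer cDNA and Nextera XT libraries, used Strand NGS to count single reads, and deposited estimated counts per gene, 52.9% of which were whole within 0.001. The deposited log2 values are the log2 of the estimated count over a scaling factor, minus the median of the gene. Whether counting used the strand is not given in the sources used here. The factors were recovered from 1247 genes with over 50 counts in every sample. Further columns of the authors hold their p-value, fold change and direction for each gene and were not used, except to see that every p-value was under 0.05.

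Counts were rounded and fitted with edgeR 4.0.16 (R 4.3.3; glmQLFit and glmQLFTest) over all 1767 genes, with the authors' factors as library sizes and no covariate. Genes were called at a Benjamini-Hochberg adjusted p under 0.05. Standard errors are the absolute log2 fold change over the square root of F. Because the listed genes mostly differ between groups, the dispersion and adjusted p-values describe the table. Exact permutation tests were two-sided, over all divisions of the 11 samples into 6 and 5, on log2 of the normalized count plus 0.5. The fits were tested on simulated data in which most genes did not differ between groups, unlike the listed genes. Samples within groups differed by at least 20.5 chi-square units per degree of freedom (25 pairs), and all were kept.

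The alternatives were TMM and DESeq2 size factors, DESeq2 1.42.0, a highest count of at least 200, the number series or glial score as covariate, samples 3 to 10 only, leaving out each sample, and an unadjusted p under 0.05 with a fold change above 1.2. The members, gene lists and markers were chosen with earlier results of these data known. The named genes were the members, Nfyc, at most 5 genes per list and direction with the smallest p, the 2 nearest genes of each member among those with a highest count of at least 200, and the markers. Rab44 and Rab6a, which are in none of the lists, were named in addition after their values were seen.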

Additional observations from a re-analysis of the deposited data

Results flagged for a closer look

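The values of the 8 members and of Nfyc were examined for single samples far from the rest of their group, in 18 groups of samples, of which chance alone would mark about 1 in 20. In 2 groups, a sample stood apart. Tor1aip2 in NT2 control sample 3, with 4037 normalized counts, was separated from the next control sample by a gap of 0.726 of the range of the group. Tmem9b in knockdown sample 4, with 3932 normalized counts, was separated from the next knockdown sample by a gap of 0.739 of the range.

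Control sample 3 also had the smallest scaling factor (0.66) and the lowest glial score of the control samples (-0.52). The part of these measures in its Tor1aip2 value was not tested.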

How the results depend on the processing

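No paired analysis was run, because the groups share no sample number and the labels do not say what the numbers stand for. The log2 fold changes of the 8 members kept their signs in all fits. All 8 were called with DESeq2's test, with a highest count of at least 200 and with an unadjusted p under 0.05 and a fold change above 1.2. Most listed genes were called in these settings too. DESeq2's test called 86.7% of the 1767 genes, and the filter on the highest count left 1329 genes, of which 84.5% were called. The rule on unadjusted p and fold change called 832 of the 1767 genes lower and 605 higher.

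TMM factors gave 377 genes called lower over the table and 3 members called lower, with Stx17 at -0.26, Rb1cc1 at -0.20, Tmed1 at -0.26 and Tmem9b at -0.25 on the log2 scale no longer called. DESeq2 size factors gave 413 genes and 4 members called lower, with Rb1cc1 at -0.22, Tmed1 at -0.28 and Tmem9b at -0.27. Both sets of factors assume that most listed genes do not differ. With TMM factors, 35.4% of the called genes were lower, compared with 59.5% under the authors' scaling, and with DESeq2 size factors 37.6%.

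With the glial score as a covariate, 7 genes were called lower and 26 higher over the table, and 0 members were called lower and 0 higher by edgeR, 3 of them having an unadjusted p under 0.05. The log2 fold changes were -0.33 for Rab5b, -0.21 for Rabgap1, -0.37 for Stx17, -0.26 for Rb1cc1, -0.62 for Tmed1, -0.36 for Tmem9b, -0.28 for Rcn2 and 0.086 for Tor1aip2. The cause was not tested.

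In the samples numbered 3 to 10, which are fewer, 195 genes were called lower and 128 higher, with 3 members lower and 0 higher by edgeR. Rabgap1 (-0.32), Rb1cc1 (-0.40), Tmed1 (-0.37), Tmem9b (-0.28) and Tor1aip2 (0.33) were not called. With the number series as a covariate, 7 members were called lower and 0 higher by edgeR, Tor1aip2 being at 0.39. Over the table, 726 genes were called lower and 497 higher in this fit, which is 69.2% of the 1767 genes. All 8 members had an unadjusted p under 0.05, a share that was not computed over the table. Nfyc was called with this covariate (-0.35, adjusted p = 0.039 from edgeR), with DESeq2's test (-0.32, adjusted p = 0.047) and without knockdown sample 4 (-0.40, adjusted p = 0.045) or control sample 23 (-0.36, adjusted p just under 0.05). It was not called with TMM factors (-0.19, adjusted p = 0.26), DESeq2 size factors (-0.21, adjusted p = 0.22) or the glial score (-0.60, adjusted p = 0.074), among other fits.

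When each sample was left out in turn, between 493 and 790 genes were called lower and between 355 and 568 higher over the table, with 4 to 7 members lower and 0 to 1 higher. The number called lower fell by over 1.5 times without control sample 7 or 21 or knockdown sample 4, 6 or 8, and the number called higher without control sample 7 or knockdown sample 6, 8 or 22. Counts were lowest without knockdown sample 6, and 4 members were called lower without knockdown sample 8 or 22. Rab5b, Rabgap1, Stx17 and Rcn2 were called in all 11 fits, and the share of the listed genes called in all 11 was not computed. Rb1cc1 ranged from -0.41 to -0.25 and was not called without control sample 5, 7 or 9 or knockdown sample 4, 8, 10 or 22 (edgeR, largest adjusted p = 0.076). Tmed1 ranged from -0.46 to -0.29 and was not called without control sample 3, 9 or 21 or knockdown sample 4, 8, 10 or 22 (edgeR, largest adjusted p = 0.078). Tmem9b ranged from -0.47 to -0.31 and was not called without control sample 7 or 21 or knockdown sample 6, 8 or 22 (edgeR, largest adjusted p = 0.057). Tor1aip2 ranged from 0.32 to 0.53 and was called only without control sample 3 or knockdown sample 10 (edgeR, largest adjusted p = 0.093). Every listed gene had been chosen by a p-value over all 11 samples, so that leaving out a sample is expected to lose calls. The depth of the libraries was not analysed here.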
